A study of Mus musculus with 28 samples.

Results

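The smooth muscle contractile genes described here are 9 of the 34839 genes in a table of mRNA levels from mouse testis: Acta2, Actg2, Myh11, Myl9, Tagln, Cnn1, Des, Tpm2 and Myom3. They were picked by name, with their levels in these same libraries known, so their own levels and differences are given as a description, with no p-value. The mRNA came from C57BL/6 testis in 3 groups: Prdm9 knockout (2 libraries), Hop2 knockout (2 libraries) and wild type (1 library). The wild type is labelled adult, and no age was given for the knockouts. The same 2 knockouts have 2 microRNA libraries each, and 1 library of single-stranded DNA marks meiotic breaks in Prdm9 K/K mice, which make PRDM9 without the KRAB domain. The protein is the histone methyltransferase that places meiotic DNA breaks, HOP2 (gene Psmc3ip) helps broken ends find the homologous chromosome, and spermatocytes lacking either protein arrest in meiosis.

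Seminiferous tubules are wrapped in a thin layer of peritubular myoid cells, smooth-muscle-like cells that contract, push sperm along the tubule and help to build its basement membrane. In smooth muscle, calcium activates a kinase that phosphorylates the myosin light chain, myosin then pulls on actin filaments, and tropomyosin and calponin-family proteins lie along those filaments. Testicular blood vessels hold smooth muscle too, and the 9 genes do not separate it from myoid cells. In whole testis, fewer cells of a type and less RNA per cell cannot be told apart.

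Values are those the authors called TPM, a level per transcript length, so that genes can be compared within a library. The 4 knockout columns sum to 825459 to 953598 and the wild-type column to 1622660, where plain TPM would sum to 1000000, and read depth is unknown. The targeted gene Psmc3ip was listed at 3.51 and 5.06 in Hop2 knockout, against 22.8 and 26.4 in Prdm9 knockout and 197 in wild type. Prdm9 itself was listed at 4.73 and 5.93 in its own knockout, at least 10.7 in both Hop2 knockout libraries and 6.20 in wild type. The labels do not say which part of Prdm9 was deleted, so its gene-level value does not check that label. Markers of spermatids summed to 144574 in wild type and to 71.0 to 115 in the knockouts. Whether replicate libraries are from different mice is not stated in the labels, and the p-values below rest on a spread among libraries that may be technical only.

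Most of the contractile genes were more abundant in the arrested testes than in wild type. All 4 knockout libraries stood above the wild-type library for 8 of the 9 genes and below it for Actg2 alone. This arrangement is common in the data, since among the 16261 genes averaging 1 or more 44.2% had every knockout library above wild type and 46.9% had every one below. With columns rescaled to a common sum of 1000000 these shares were 58.4% and 33.8%, and the 9 genes kept their sides. Acta2, Myl9, Tpm2, Des, Myh11, Tagln and Cnn1 formed the larger block, with mean knockout levels 1.68 to 4.17 times the wild-type level as deposited and 3.07 to 7.61 times it after rescaling. Actg2 was 102 times higher in wild type, and Myom3 differed between the 2 knockouts as well.

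**Figure D1:**
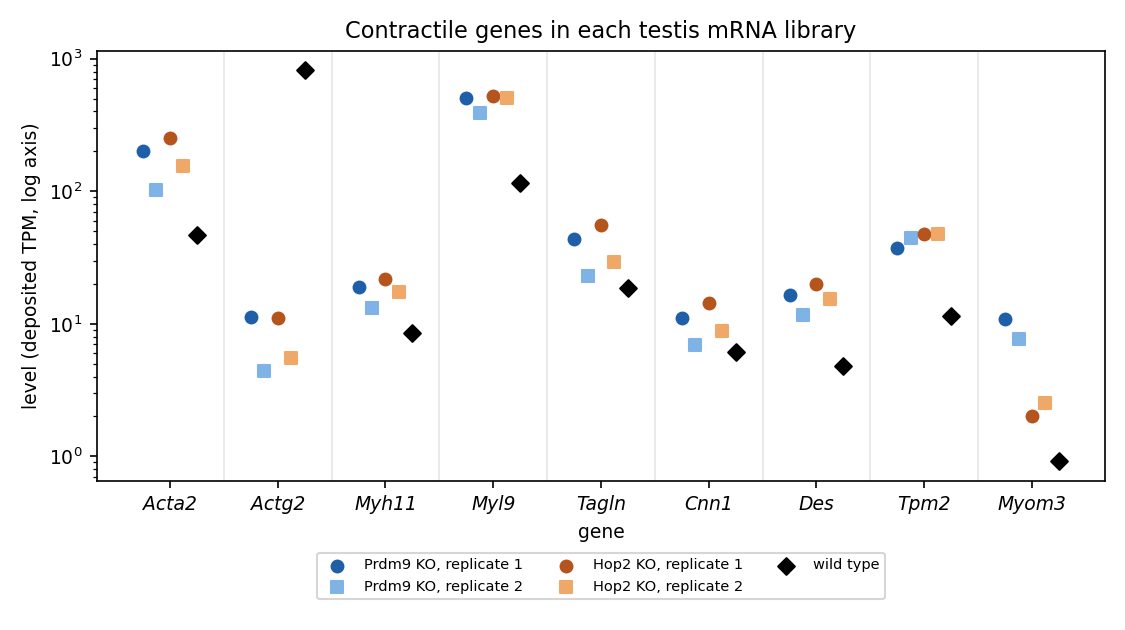
Deposited TPM of the 9 genes in each mRNA library on a log axis. Blue marks Prdm9 knockout and orange Hop2 knockout, circles replicate 1 and squares replicate 2, and the black diamond is the single wild-type library. The diamond lies below all 4 knockout points for 8 genes, while for Actg2 it lies at 818 against knockout points of 4.38 to 11.2.

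Acta2 encodes smooth muscle alpha-actin, the thin-filament actin by which myoid cells are usually recognised (ENSMUSG00000035783, chr19:34240336-34255585, GRCm38). Its level was 200.4 and 102 in Prdm9 knockout, 251 and 154 in Hop2 knockout and 46.8 in wild type. The knockout mean was 177 ± 63.8 (SD, n = 4), 3.78 times the wild-type value, and the lowest knockout library was still 2.17 times above it. The knockouts' own spread was wide, because replicate 1 exceeded replicate 2 by 1.97 times in Prdm9 knockout and 1.63 times in Hop2 knockout.

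Myl9, the regulatory light chain that carries the activating phosphate, was the most abundant of the 9 in every knockout (ENSMUSG00000067818, chr2:156775408-156781657). It was listed at 509 and 389.7 in Prdm9 knockout, 526 and 504 in Hop2 knockout and 116 in wild type. The ratio of the knockout mean of 482 ± 62.5 (SD, n = 4) to wild type was 4.17. Myh11, the smooth muscle myosin heavy chain and the most restricted of these genes to differentiated smooth muscle, was far less abundant (ENSMUSG00000018830, chr16:14194527-14292188). Its values of 18.9 and 13.2, then 21.7 and 17.3, compare with 8.60 in wild type, a ratio of 2.07. The 2 partners of the same motor thus differed from wild type by unlike factors, and the gap between those factors was not tested.

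The upstream sequences of Acta2 and Myl9 are shown because they are the most abundant members with an entry and moved together in the knockouts, and that of Myom3 because it did not follow them. Each runs 5′ to 3′ over the 250 bases before the promoter start in RefSeq's GRCm38.p6 annotation, read on the gene's strand. For each of them that start lies inside the gene span given with its levels, so the windows overlap the spans. The Myom3 window lies wholly within its span. Acta2 is at chr19:34255374-34255623 on the minus strand, Myl9 at chr2:156775214-156775463 on the plus strand and Myom3 at chr4:135759465-135759714 on the plus strand. Capitals mark an exact match to the CArG box, the site bound by serum response factor, which switches on many contractile genes.
Acta2: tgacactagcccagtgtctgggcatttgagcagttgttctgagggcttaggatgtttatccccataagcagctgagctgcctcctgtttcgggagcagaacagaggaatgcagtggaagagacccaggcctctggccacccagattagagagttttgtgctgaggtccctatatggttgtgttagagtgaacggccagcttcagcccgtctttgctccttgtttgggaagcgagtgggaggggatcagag
Myl9: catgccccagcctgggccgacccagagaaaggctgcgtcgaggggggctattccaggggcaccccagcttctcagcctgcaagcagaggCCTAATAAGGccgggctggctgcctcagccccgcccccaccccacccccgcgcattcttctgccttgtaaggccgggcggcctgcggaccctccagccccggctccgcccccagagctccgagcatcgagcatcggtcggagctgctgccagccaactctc
Myom3: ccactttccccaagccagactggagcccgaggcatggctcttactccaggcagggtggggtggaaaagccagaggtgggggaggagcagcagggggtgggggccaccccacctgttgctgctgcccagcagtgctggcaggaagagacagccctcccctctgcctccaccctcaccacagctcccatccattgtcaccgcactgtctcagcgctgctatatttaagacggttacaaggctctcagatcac
Promoters of 300 bases (250 before the start and 50 after) were in the RefSeq table for 6 of the 9 members, namely Acta2, Myl9, Cnn1, Des, Tpm2 and Myom3. Actg2, Myh11 and Tagln had no entry. The search for a CArG box took CC, then 6 bases that are each A or T, then GG, which reads the same on both strands. Looser forms of the box, with a base that departs from this pattern, were not searched for. A sequence without capitals may therefore still hold such a form. Only Myl9 of the 6 held it, as CCTAATAAGG from 161 to 152 bases before the start, while 1.63% of the 32851 promoters in the table did. The letters CATTCC, the core recognised by TEAD factors, were found on the opposite strand (as GGAATG) in Acta2, 146 to 141 bases before the start, and in 14.7% of all promoters. TATAAA on either strand was in none of the 6 windows and in 13.6% of all. These are matches of letters, not measured sites.

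The other thin-filament genes were higher by smaller or similar factors. Tagln encodes transgelin (SM22), an actin-bundling protein of the calponin family (ENSMUSG00000032085, chr9:45929628-45936058). Its levels were 44.0 and 22.9 in Prdm9 knockout, 55.9 and 29.3 in Hop2 knockout and 18.5 in wild type, so the lowest knockout library was only 1.24 times above wild type. Cnn1 encodes calponin 1, which binds actin and slows the myosin ATPase (ENSMUSG00000001349, chr9:22099221-22109221). It was at 11.0 and 6.96, then 14.4 and 8.88, against 6.12, which gives the smallest ratio of the 8 genes that were higher in the knockouts, at 1.68. As deposited, the nearest knockout library lay close to wild type for both genes, but after rescaling it was 2.44 times wild type for Tagln and 2.24 times for Cnn1. Tpm2, the beta-tropomyosin that runs along the actin filament, had the smallest knockout SD relative to its mean among the 9 as deposited (ENSMUSG00000028464, chr4:43513726-43523583). It was listed at 37.4 and 44.8, then 47.9 and 47.7, against 11.5, a ratio of 3.88 with a knockout SD of 4.91.

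Des encodes desmin, the intermediate filament protein of muscle cells that ties the contractile units together (ENSMUSG00000026208, chr1:75360292-75368579). Its levels were 16.5 and 11.7 in Prdm9 knockout, 19.9 and 15.3 in Hop2 knockout and 4.81 in wild type. Every knockout library was at least 2.44 times above wild type. On the log2(TPM + 1) scale the 7 genes other than Actg2 and Myom3 had a median knockout minus wild type difference of 1.51, from 0.62 (SE 0.38) for Cnn1 to 2.04 (SE 0.19) for Myl9. The median over all 16261 genes was -0.065. When columns were rescaled to a common sum of 1000000 the all-gene median became 0.73, and with quantile normalization it became 0.60. Relative to the all-gene median, the 7 genes stood at a median of 1.578 as deposited, 1.502 after rescaling and 1.566 after quantile normalization. Wild type is a single library, so these differences have no replicate check on its side.

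Summed over the 7 genes, the level was 838 and 591 in Prdm9 knockout, 937 and 777 in Hop2 knockout and 212 in wild type. Per 1000000 of each column's sum this was 959, 716, 1045 and 815 in the knockouts in the same order and 131 in wild type. Myl9 made up 55.4% to 64.6% of the 9-gene sum in the knockouts and Acta2 16.9% to 26.4%. Within the 7 genes the wild-type makeup was similar for Myl9 (54.6%) and Acta2 (22.1%), whereas Myh11 took 4.06% in wild type and 2.23% to 2.32% in the knockouts. The order of levels in the knockouts was Myl9, then Acta2, with no overlap between their libraries. Tpm2 (37.4 to 47.9) and Tagln (22.9 to 55.9) overlapped and shared the next place. Myh11 (13.2 to 21.7), Des (11.7 to 19.9), Cnn1 (6.96 to 14.4), Actg2 (4.38 to 11.2) and Myom3 (2.01 to 10.9) followed, each overlapping its neighbour in that order.

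Actg2 encodes smooth muscle gamma-actin, the main actin of gut and other visceral smooth muscle, and its pattern was the reverse of Acta2 (ENSMUSG00000059430, chr6:83512909-83536251). It was listed at 11.2 and 4.38 in Prdm9 knockout, 11.1 and 5.50 in Hop2 knockout and 818 in wild type. Wild type was 102 times the knockout mean of 8.04 ± 3.61 (SD, n = 4), or 55.6 times after columns were rescaled to a common sum. In the wild-type library Actg2 was the 304th most abundant gene and made up 79.3% of the 9-gene sum, against 0.701% to 1.30% in the knockouts. The ratio of Actg2 to Acta2 was 17.5 in wild type and 0.0357 to 0.0558 in the 4 knockout libraries.

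Among the 6 actin genes, whose coding sequences are nearly identical so that reads may be divided between them with error, Actg2 was 16.3% of the summed level in wild type and at most 0.249% in any knockout. For the cytoplasmic actins wild type lay within the knockout range as deposited: Actb ranged from 2037 to 2513 in the knockouts and was 2382 in wild type, and Actg1 ranged from 1436 to 2111 and was 1761. After rescaling wild type lay below every knockout library for both, with Actb at 1468 against 2361 to 2877 and Actg1 at 1085 against 1659.5 to 2418. Skeletal actin Acta1 was at or below 0.360 in every library, and cardiac actin Actc1 was at 0.0825 to 0.253 in the knockouts and 0.148 in wild type.

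The transcript table divides the Actg2 signal sharply. Transcript ENSMUST00000075161 was at 7.49 and 3.49 in Prdm9 knockout, 8.62 and 5.27 in Hop2 knockout and 4.99 in wild type, so wild type lay inside the knockout range as deposited. After rescaling it was at 3.07, below the knockout range of 4.23 to 9.62. This transcript was 66.9% to 95.9% of the gene in the knockouts and 0.609% in wild type. The wild-type excess came from other transcripts. ENSMUST00000121731 was at 485 in wild type, 0.308 in 1 Prdm9 knockout library and listed at 0 in the other 3 knockout libraries. ENSMUST00000152029 was at 207 in wild type, 0.0726 in the same knockout library and listed at 0 in the rest. ENSMUST00000141904 was at 119 in wild type, 3.32 and 0.786 in Prdm9 knockout and 2.47 and 0.227 in Hop2 knockout. Together the transcripts other than ENSMUST00000075161 summed to 813 in wild type, 99.4% of the gene, and to 0.227 to 3.70 in the knockouts.

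Set against Acta2, ENSMUST00000075161 kept a nearly fixed ratio in the knockouts, at 0.0374 and 0.0343 in Prdm9 knockout and 0.0343 and 0.0342 in Hop2 knockout, with 0.106 in wild type. The division of reads among the transcripts of a gene, and between these nearly identical actin genes, is itself an estimate. Whether the nearly fixed ratio comes from shared expression or from Acta2 reads counted for Actg2 was not tested. As background, a smooth muscle gamma-actin mRNA has been described in postmeiotic male germ cells of mice. The part of germ cells in the Actg2 difference was not tested.

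**Figure D2:**
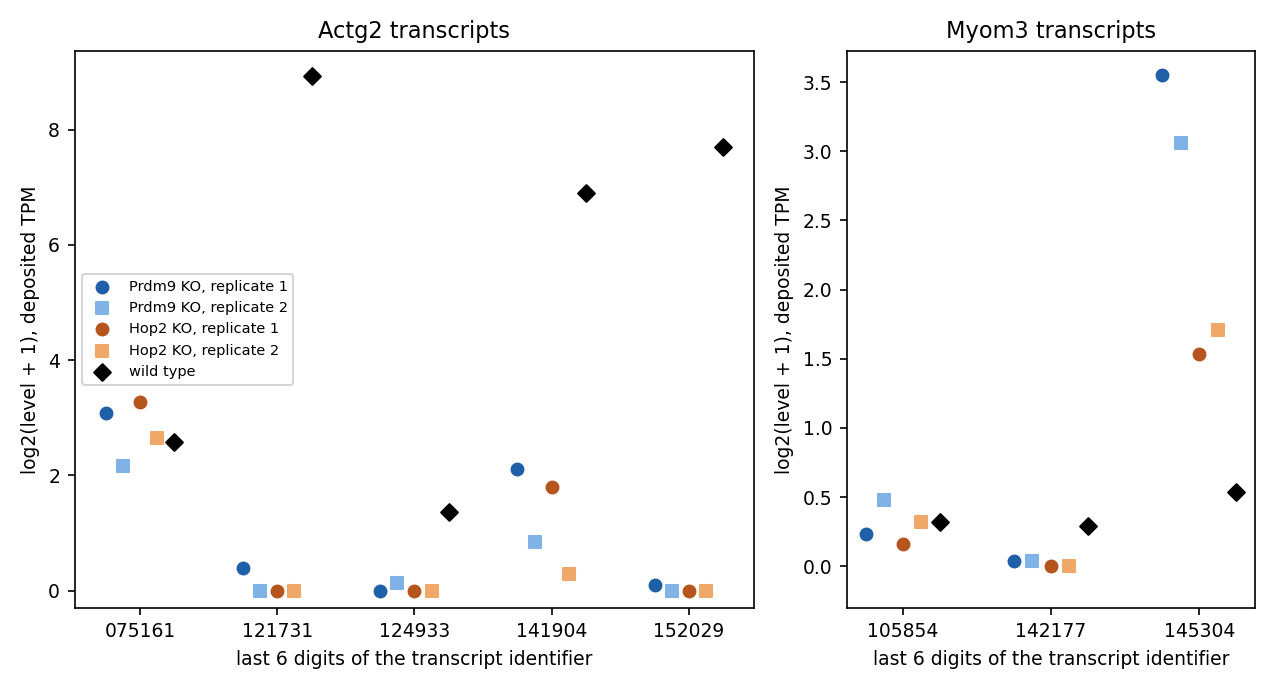
Levels of Actg2 and Myom3 transcripts in each library as log2(TPM + 1), with blue for Prdm9 knockout, orange for Hop2 knockout and black diamonds for wild type. The Actg2 transcript ENSMUST00000075161 has wild type (4.99) within its knockout points of 3.49 to 8.62, and the other abundant Actg2 transcripts stand at 119 to 485 TPM in wild type and at or below 3.32 in the knockouts.

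By distance between centred log2(TPM + 1) profiles over the 5 libraries, the genes most like Actg2 were Cst13 (root mean square distance 0.330), Ttc39a (0.376), Pabpc6 (0.397), Cap2 (0.403) and Aqp11 (0.405). Cst13 was at 167 in wild type and 0.280 to 0.782 in the knockouts, and Aqp11 at 1021 and 4.76 to 6.71. The profile nearest to Acta2 was that of Traj23 (0.0882), followed by Matn2 (0.101), Ppic (0.103), Gpx8 (0.106) and Ugt1a6b (0.107). Matn2, a matrix protein gene, was at 7.69 and 4.06 in Prdm9 knockout, 9.11 and 5.46 in Hop2 knockout and 1.09 in wild type, with the same excess of replicate 1. The 26 spermatid markers all fell in the knockouts (26 of 26 by limma, median log2 difference -9.27), as did 14 of 14 late spermatocyte markers (median -7.41), and their knockout sums were 0.0491% to 0.0793% of wild type for spermatids. Tissue carried over from the epididymis or its ducts was looked for as well, since these hold much smooth muscle. The 20 epididymal markers summed to 435 in wild type and 24.9 to 70.0 in the knockouts, but Cst8, which testicular germ cells also make, accounted for 424 of the wild-type sum. The other 19 summed to 11.3 in wild type and 2.50 to 5.04 in the knockouts, with Lcn10 and Ovch2 listed at 0 in every library. Most of that wild-type sum was Ces5a (4.89) and Rnase10 (4.12), which were at most 0.0244 and 0.0422 in the knockouts. Some others went the other way, such as Cst11, at 0.0610 in wild type and 0.274 to 1.92 in the knockouts. The part of carried-over tissue in the Actg2 difference was not tested.

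Myom3 encodes myomesin 3, a protein of the M-band that crosslinks thick filaments in striated muscle (ENSMUSG00000037139, chr4:135758800-135815571). It was the least abundant of the 9 in wild type, at 0.920. Levels were 10.9 and 7.75 in Prdm9 knockout and 2.01 and 2.51 in Hop2 knockout. Both Prdm9 knockout libraries were thus above both Hop2 knockout libraries, which was true of 11.9% of the 14358 genes that averaged 1 or more over the knockouts. The Prdm9 knockout mean was 4.13 times the Hop2 knockout mean, a log2(TPM + 1) difference of 1.65 (SE 0.21), where the median gene stood at -0.035. The Hop2 knockouts were themselves at least 2.19 times above wild type.

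A single transcript, ENSMUST00000145304, held the Myom3 difference, at 10.7 and 7.33 in Prdm9 knockout, 1.89 and 2.26 in Hop2 knockout and 0.450 in wild type. It made up 90.0% to 98.1% of the gene in the knockouts and 48.9% in wild type. The rest of the gene summed to 0.203 and 0.420 in Prdm9 knockout, 0.120 and 0.252 in Hop2 knockout and 0.470 in wild type, with overlapping knockouts. Nearest to Myom3 in profile were the gene listed as BTF3L4 (distance 0.236), Tagap (0.310), Cbs (0.391), Cntnap1 (0.402) and Bricd5 (0.459). These distances were larger than those around Acta2, and Cbs, the enzyme that makes cystathionine from homocysteine, was at 10.5 and 8.22, then 4.80 and 3.67, then 0.780. The sum of the striated muscle markers did not show the Prdm9 knockout excess, at 212 and 204 in Prdm9 knockout, 241 and 240.3 in Hop2 knockout and 101 in wild type. Smpx alone gave 91.1 and 82.3, then 107 and 98.7, then 34.1 of these sums, and 16 of the 30 markers had a mean under 1. The sum thus says little about most of the list, and the source of the Myom3 difference was not tested.

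The transcript makeup of the remaining members differed less. Acta2 and Myh11 each had 1 transcript in the table. The main Myl9 transcript, ENSMUST00000088552, was 95.7% to 98.2% of its gene and the main Tpm2 transcript, ENSMUST00000107914, was 95.7% to 98.3%. Cnn1 was the exception. ENSMUST00000216141 was 62.8% of Cnn1 in wild type and 17.6% to 34.8% in the knockouts, and its level of 3.84 in wild type lay within the knockout range of 1.56 to 3.88. ENSMUST00000216872 was at 1.07 to 3.16 in the knockouts and 2.49e-06 in wild type. After rescaling ENSMUST00000216141 was at 2.37 in wild type, still inside its knockout range of 1.64 to 4.33.

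Between the 2 knockouts the muscle genes were close. Apart from Myom3, all had a lower mean in Prdm9 than in Hop2 knockout (8 of 9), but Tpm2 was the only gene whose libraries did not overlap, both Prdm9 values lying below both Hop2 values, as for 21.0% of all genes. After rescaling the Tpm2 libraries overlapped too, at 42.8 and 54.3 against 53.4 and 50.1. Without Actg2 and Myom3, the log2 differences ran from -0.46 (Acta2, SE 0.40) to -0.21 (Myl9, SE 0.18) with a median of -0.30. After rescaling they were smaller, from -0.34 (Acta2) to -0.086 (Myl9). The median over all genes was -0.035 as deposited and 0.076 after rescaling. Acta2, Actg2 and Tagln changed sign when replicate 2 of Prdm9 knockout was left out, to 0.026, 0.46 and 0.12. Without replicate 1 of Hop2 knockout Actg2 and Tagln changed sign too, to 0.32 and 0.12. Over all genes limma called 2 of 14358 higher in Prdm9 knockout (0.0139%) and 0 lower at an adjusted p below 0.05, with 445 at an unadjusted p below 0.05.

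For Acta2, Actg2, Myh11, Tagln, Cnn1 and Des the ratio of replicate 1 to replicate 2 exceeded, in both genotypes, the ratio of the Hop2 to the Prdm9 knockout mean. Replicate 1 exceeded replicate 2 in both genotypes for 7 of 9 genes, against 40.3% of all genes. The exceptions were Tpm2 (37.4 against 44.8 in Prdm9 knockout) and Myom3 (2.01 against 2.51 in Hop2 knockout). The ratio of replicate 1 to replicate 2 was largest for Actg2, at 2.56 in Prdm9 and 2.02 in Hop2 knockout. It was 1.92 and 1.91 for Tagln but 1.31 and 1.04 for Myl9. Leydig cell markers were mixed: of 12, 4 were higher in replicate 1 in both genotypes and 5 were lower in both. Their sum was lower in replicate 1, at 38839.7 and 56595 in Prdm9 knockout and 28660.2 and 81679 in Hop2 knockout, but it was mostly Insl3, and the sum without Insl3 was 7655 and 11882, then 7635 and 13456. Whether the replicate numbers stand for anything shared is not given in the labels, and the part of tissue makeup in this spread was not tested.

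**Figure D3:**
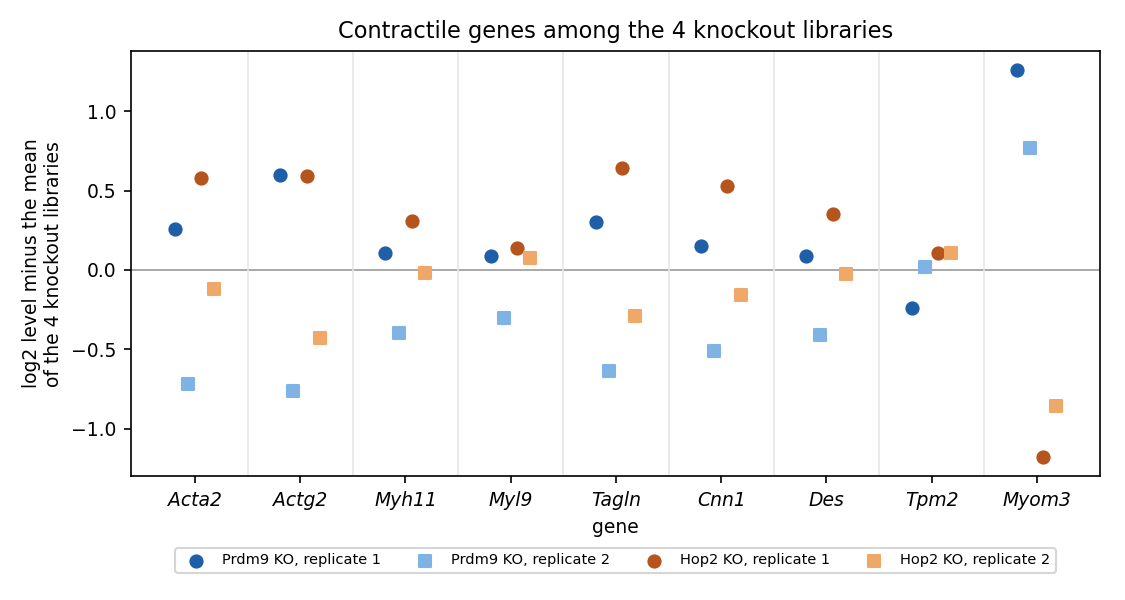
Levels of the 9 genes in the 4 knockout libraries, as log2 TPM centred on each gene's mean over those libraries. Replicate 1 (circles) lies above replicate 2 (squares) in both genotypes for 7 genes, and the Prdm9 knockout points of Myom3 lie above its Hop2 knockout points.

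Other genes of the contractile apparatus, which the rule did not use, were mostly higher in the knockouts. Of 25 listed, 21 were tested, and by limma 13 rose and 3 fell at an adjusted p below 0.05. Their median log2 difference was 1.10, and over all 16261 genes 36.3% rose and 40.5% fell. Higher genes were thus 47.3% of those called, a share that became 65.2% after columns were rescaled and 61.7% with quantile normalization. Pdlim3, a partner of alpha-actinin, was at 34.1 and 28.0 in Prdm9 knockout, 37.7 and 32.3 in Hop2 knockout and 3.98 in wild type, a log2 difference of 2.76 (SE 0.17, limma adjusted p 0.000775). Ppp1r14a, the inhibitor of myosin phosphatase known as CPI-17, was at 74.9 and 125 in Prdm9 knockout, 79.5 and 124 in Hop2 knockout and 16.2 in wild type (log2 difference 2.52, SE 0.41, limma adjusted p 0.00870). Csrp1 rose by 2.04 (limma adjusted p 0.0212) and Aoc3 by 1.84 (limma adjusted p 0.0268) on the log2 scale. The call of Aoc3 was lost without either Prdm9 knockout replicate, at limma adjusted p 0.0814 without replicate 1 and 0.0732 without replicate 2. Among those that fell were Hspb6 and Nexn, with log2 differences of -1.72 and -1.24. After columns were rescaled to a common sum Hspb6 was still called (limma adjusted p 0.00813) and Nexn was not (0.140), and 15 genes of the list rose.

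Relatives of the members rose in 13 of 18 tested cases and fell in 1 (22 listed, median 1.505). Cnn3, a calponin of non-muscle cells, was at 89.3 and 92.6 in Prdm9 knockout, 77.5 and 124 in Hop2 knockout and 6.60 in wild type (log2 difference 3.65, SE 0.29, limma adjusted p 0.00136). Vim, the intermediate filament protein of mesenchymal and Sertoli cells, was at 746 to 1159 in the knockouts and 142 in wild type (log2 difference 2.80, limma adjusted p 0.00293). Myl12a, a light chain closely related to Myl9, rose by 2.14 (limma adjusted p 0.00435). Myh10, a non-muscle myosin heavy chain, was the relative that fell, by 2.50 on the log2 scale (limma adjusted p 0.00248), the opposite of Myh11. Between the knockouts no relative passed. The lowest unadjusted p-values were 0.0153 for Tpm4 (log2 difference -0.55) and 0.0404 for Tpm1 (-0.35), both with limma adjusted p 0.972.

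Transcription regulators of smooth muscle were divided, with 12 of 19 tested higher, 5 lower and a median of 1.16. Klf4, which represses contractile genes in vascular smooth muscle and is also made by spermatids, was at 17.7 and 17.0 in Prdm9 knockout, 13.6 and 14.3 in Hop2 knockout and 341 in wild type (log2 difference -4.37, SE 0.10, limma adjusted p 5.02e-05). The Notch ligand Jag1 fell by 2.24 (limma adjusted p 0.000655), while Tgfb1 (2.12, limma adjusted p 0.00241) and its receptor Tgfbr2 (2.09, limma adjusted p 0.0102) rose. Serum response factor and its partners did not share a direction. Srf was at 38.7 to 43.5 in the knockouts and 60.7 in wild type, a log2 difference of -0.53 (limma adjusted p 0.0128) that became 0.32 (limma adjusted p 0.0361) after columns were rescaled. Mkl1 (also called Mrtfa) fell by 1.47, and Myocd, the muscle-restricted coactivator, was at 0.841 to 1.70 against 0.378 in wild type (log2 difference 0.71, limma adjusted p 0.0428). The other member of the list that fell, Tgfbr1, had a log2 difference of -1.25 that was no longer past the threshold after rescaling (-0.39, limma adjusted p 0.278).

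Ligands, receptors and messengers of contraction rose in 9 of 18 tested cases and fell in 4, with a median of 0.86. Edn1, the precursor of endothelin 1, which makes myoid cells contract, was at 8.04 to 11.2 in the knockouts and 0.526 in wild type (log2 difference 2.86, SE 0.18, limma adjusted p 0.000752). The oxytocin receptor gene Oxtr rose by 2.29 (limma adjusted p 0.00156). Agtr1a, an angiotensin receptor, was at 0.260 to 0.452 in the knockouts and 19.1 in wild type (log2 difference -3.88, limma adjusted p 0.000115). Prkg1, the cGMP-dependent kinase that relaxes smooth muscle, was at 4.73 to 7.57 in the knockouts and 121 in wild type (log2 difference -4.04, limma adjusted p 0.000989). Adra1d and Cacna1c were the others that fell, by 1.57 and 0.67, and Cacna1c was no longer called after rescaling (log2 difference -0.10, limma adjusted p 0.603). In each of these 4 lists limma called 0 genes between the knockouts, and only the 2 tropomyosins among the relatives had an unadjusted p below 0.05.

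**Figure D4:**
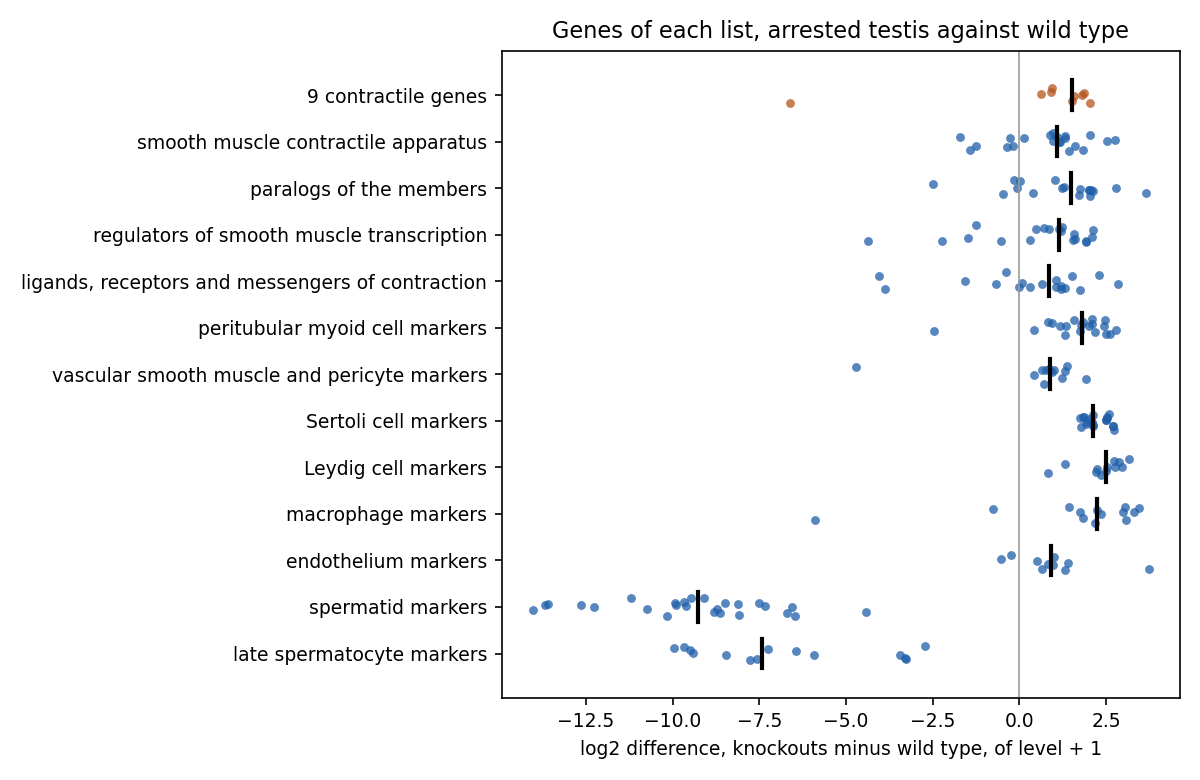
Knockout minus wild type differences in log2(TPM + 1) for the genes of each list, 1 point per gene with the list's median. The Sertoli, Leydig, macrophage and peritubular myoid lists have medians of 1.82 to 2.51, the contractile lists of 0.86 to 1.505, and the spermatid and late spermatocyte lists of -9.27 and -7.41.

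Markers of the cells that could carry the contractile genes moved alongside them. Of 20 peritubular myoid markers, 17 rose, 1 fell and the median was 1.82. Their summed level was 2197 to 2471 in the knockouts and 432 in wild type. Much of it was Aldh1a1, which alone gave 1330.2 to 1578 of the knockout sums and 219 of the wild-type sum. Whether Aldh1a1 and the other listed genes come from myoid cells only was not tested. Their rise therefore cannot be read as a change in those cells alone. Aldh1a1, a retinoic acid synthesis enzyme, rose by 2.78 (limma adjusted p 0.00101), Pdgfra by 2.61 (0.00809), Tcf21 by 2.51 (0.0125) and Dcn, which encodes the matrix protein decorin, by 2.47 (0.0120). Somatic cells with no contractile role rose as well: 19 of 19 Sertoli markers (median 2.12), 9 of 12 Leydig markers (median 2.51) and 11 of 13 macrophage markers (median 2.25). The 2 macrophage markers that fell were Aif1, at 761 in wild type and 9.84 to 14.8 in the knockouts, and Fcgr3, whose log2 difference of -0.75 became 0.085 after columns were rescaled. The larger share of somatic RNA in a testis without late germ cells cannot be told apart from higher expression in the muscle cells.

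Vascular smooth muscle and pericyte markers rose in 9 of 12 cases and fell in 1, with a median of 0.90, although their sum was lower in the knockouts (58.5 to 69.6) than in wild type (116) as deposited. After rescaling the groups overlapped, at 63.1 to 79.7 and 71.7. Ndufa4l2 alone gave 99.2 of the wild-type sum and was the marker that fell. Endothelial markers rose in 7 of 10 cases and fell in 1, Flt1 (median 0.91), and Flt1 was not called after rescaling (log2 difference 0.02, limma adjusted p 0.910). Of the 30 striated muscle markers, 16 had a mean under 1, and of the 14 tested 8 rose and 4 fell (median 0.63). Those that fell as deposited were Actn2, Ckm, Tnnc2 and Casq1, and whether these falls hold after rescaling is not given here. The troponin gene Tnni1 rose by 4.03 on the log2 scale (limma adjusted p 0.000129). Of the enteric and mesothelial list 3 of 4 tested genes rose, namely Wt1, which Sertoli cells make too, Lrrn4 and Ret. The part of vessels, stray striated muscle or capsule tissue in the levels of the 9 genes was not tested.

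MicroRNAs of muscle give a readout that did not enter the choice of the genes, in the 2 knockouts only. The miR-143 and miR-145 pair, made from a shared precursor in smooth muscle and other mesenchymal cells, supports the contractile state, and miR-1 and miR-133 belong to striated muscle. miR-143-3p was the most abundant mature microRNA over the 4 libraries, at 130986 and 168589 in Prdm9 knockout and 115545 and 210103 in Hop2 knockout. This was 14.0% to 24.0% of the summed level of the mature names. The 2 groups overlapped, and the log2 difference of Prdm9 minus Hop2 knockout was -0.068 (SE 0.43, limma unadjusted p 0.874).

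miR-145a-5p was at 710.2 and 608 in Prdm9 knockout and 542 and 302 in Hop2 knockout, with both Prdm9 values above both Hop2 values, as for 19.9% of the 342 microRNAs tested. Its log2 difference was 0.70 (SE 0.48) and did not pass (limma unadjusted p 0.147). The opposite arm miR-145a-3p was at 583 and 338, then 854 and 511, a log2 difference of -0.57 (SE 0.48, limma unadjusted p 0.234). miR-1a-3p was at 733 and 456, then 1502 and 692, with the lowest unadjusted p of the list at 0.0861 (log2 difference -0.82, SE 0.47). The values of miR-133a-3p were 227 in both Prdm9 knockouts and 188 and 163 in Hop2 knockout. Of 17 muscle microRNAs listed 10 passed the minimum mean of 10, and 0 were called. Over all 342 tested, limma called 0 (0% in either direction) and 13 had an unadjusted p below 0.05. The miR-486a-5p and miR-486b-5p entries held identical values and are 1 measurement.

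**Figure D5:**
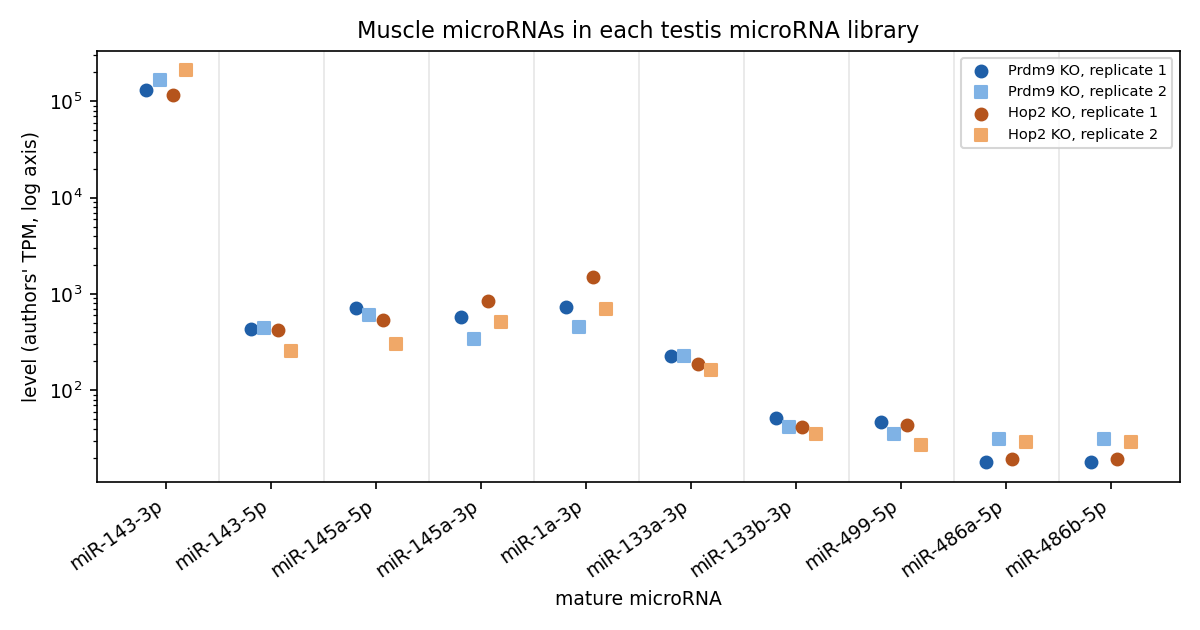
Deposited microRNA TPM of the muscle microRNAs that passed the minimum mean, on a log axis, in 2 Prdm9 knockout (blue) and 2 Hop2 knockout (orange) libraries. miR-143-3p lies at 115545 to 210103 with the groups interleaved, and the others lie at or below 1502.

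Meiotic breaks in Prdm9 K/K testis were looked for at the same genes, since without normal PRDM9 function breaks move towards gene promoters. The authors called 17731 peaks of single-stranded DNA from the 1 library. None of the 6 members with a RefSeq start had a peak within 1000 bases of it (0 of 6), where 35.8% of 27025 genes did. Within 5000 bases the only member was Myl9, at 4692 bases (39.5% of all genes). Peaks overlapped the bodies of 2 of the 9 genes: 1 at chr2:156780156-156781516 in Myl9 and 1 at chr16:14290845-14292167 in Myh11, which had no RefSeq start to measure from, where 50.6% of 21900 protein-coding genes had such an overlap. The Myh11 peak ended 21 bases short of the higher-coordinate end of the gene, and whether that end is its start was not looked up here, as the gene table used gives no strand. With a single library these are positions with no replicate.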

How the data were processed

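Values came from 5 mRNA and 4 microRNA libraries and a list of break peaks from 1 library. Both expression tables hold a signal that the authors called TPM, per the file headers. The submitters' processing notes name CASAVA with kallisto and sleuth for mRNA, CASAVA and DESeq2 for microRNA and MACS2 2.1.0.20150420 for peaks, and builds GRCm38 and mm10. Which step gave the mRNA columns unequal sums was not given in the sources read. The unit was planned for, and the planned test was kept.

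The 9 members and all gene lists were chosen with earlier results of these data known. Groups came from the labels. From the values, log2(value + 1) was fitted by limma (version 3.58.1, under R 4.3.3) with its intensity trend, Benjamini-Hochberg adjustment over all genes tested and a threshold of 0.05. The minimum mean was 1 for genes and 10 for microRNAs. On this scale the fold of a weak gene is understated. For knockout against wild type the mean of the 2 knockout groups was set against the single wild-type library, which was assumed to vary like the knockouts. The fit was tested on simulated data with known changes. Where a result needed it, columns were rescaled to a sum of 1000000 or quantile normalized.

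Named genes are the members, up to 4 genes of each muscle list with the largest difference among those called, up to 2 of each with the lowest p between the knockouts, and the 5 nearest profiles. Marker lists of other cells are given as counts and sums. Smpx, Ces5a, Rnase10 and Cst11 were named after their values were seen. Some genes that this rule or a small count would name are not reported here. Genes named because a list's count was small (Hspb6, Nexn, Srf, Mkl1, Myocd, Tgfbr1, Adra1d, Cacna1c, Ndufa4l2, Aif1, Fcgr3, Flt1, Actn2, Ckm, Tnnc2, Casq1, Tnni1, Wt1, Lrrn4, Ret) were chosen after their values were seen. Mkl1, Mkl2, Gucy1a3 and Gucy1b3 were matched under their older names. The number of unused per-sample columns was 0. Sequences and gene starts are from RefSeq, GRCm38.p6. Histone libraries and the deposited test tables were not used here.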

Additional observations from a re-analysis of the deposited data

How the results depend on the processing

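Directions of the 9 genes between knockout and wild type held under each alternative run, but Myom3 gave no value at a minimum mean of 5. Depth is unknown, so no interval for low values can be given. Among genes called between knockout and wild type 47.3% were higher, and this became 65.2% after rescaling, 61.7% with quantile normalization and 31.8% with no filter on low values, where 12439 genes were lower. Genes called between the knockouts numbered 2, and became 1 with a pseudocount of 5, 0 with no filter (980 at an unadjusted p below 0.05) and 3 to 11 with 1 library left out, the 11 without replicate 2 of Prdm9 knockout. Of the contractile apparatus genes tested 13 rose and 3 fell, which became 8 and 5 with no filter, and 1 fell after rescaling. Without a filter, limma adjusted p was 0.0540 for Csrp1 and 0.0618 for Aoc3, and a pseudocount of 5 gave 0.0542 for Aoc3. The cause of these shifts was not tested.

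The labels give replicate numbers but do not say that they pair samples, and with 2 pairs the numbers were not taken to. Deviations of same-numbered libraries correlated at 0.413 across genes and 0.042 across microRNAs. With the replicate number as a block 8 genes and 1 microRNA were called. MicroRNA calls ranged from 0 to 16 with 1 library left out, the 16 without replicate 1 of Hop2 knockout. Log2 differences changed sign for miR-133b-3p (0.29 to -0.071), miR-499-5p (0.25 to -0.065) and miR-486a-5p and miR-486b-5p (0.0062 to -0.25) with quantile normalization. With 1 library left out they ranged from 0.13 to 0.44 for miR-133b-3p, from -0.50 to 0.36 for miR-143-3p, from -0.39 to 0.40 for miR-486a-5p, from -0.39 to 0.40 for miR-486b-5p, from -0.079 to 0.59 for miR-499-5p. With a reach of 5000 bases 1 member had a break peak, and 2 had one in the gene body.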
